A study of Zea mays with 12 samples.

Results

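Root cells of maize (Zea mays) that held no nematode were compared between 21 and 14 days after juveniles of a root-knot nematode, Meloidogyne incognita, had been added to the plants. They are the 6 arrays labelled as control root cells, 3 at 21 days and 3 at 14 days, out of 12 arrays in all. The other 6 arrays hold giant cells, the enlarged feeding cells that this nematode induces, 3 at 21 days and 3 at 14 days. The genotype is labelled as a cross of A188 and B73, and it is the same in every group. Seedlings aged 2 weeks, in a mix of 2 parts sand and 1 part turface, received 1000 second-stage juveniles each, so every plant was infested. Control cells were taken by laser capture from parts of these same roots that showed no infestation, as an area of about 13000000 square micrometres or 75 to 150 cells. Giant-cell samples covered about 5000000 square micrometres or 40 to 60 cells. Roots of uninfested plants are not among the 12 arrays, and the labels tie no array to a plant. Each day's 3 arrays are described as biological replicates. A p-value for a probe set rests on the spread between captures of the same group, pooled over all 12 arrays with giant cells included. A large spread among giant-cell captures can therefore widen a standard error (SE) given for control cells. Where giant-cell captures vary less than control captures, pooling narrows that SE. The 3 arrays a day limit its precision.

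A root cell that leaves the tip first divides, then elongates, and then takes on its mature wall, vacuole and transport proteins. Dividing cells are rich in replication proteins, histones and ribosomes. Maturing cells of the root body carry many aquaporins, the membrane channels that let water pass, and some of them deposit cellulose and lignin in thick secondary walls. In a captured mixture, fewer cells of one type and less RNA per cell cannot be told apart.

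RNA of each capture was amplified and read on an Affymetrix maize array, and values are MAS5 signals on a linear scale with no unit. A gene is measured by a probe set, a group of short probes. Since probe sets bind with different strength, differences are taken between arrays for 1 probe set at a time, and a rank of genes by signal is no rank by number of transcripts. Leaving out control probe sets, the array held 17621, and 12080 of them were bright enough to test. Only 1452 probe sets have a single gene in the platform annotation. They stand for 976 genes with a name other than a placeholder, of which 688 were tested through their brightest probe set.

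The labelled tissue was checked first. Of 14 genes of green tissue on the array, 11 stayed under a signal of 100 on all 6 arrays, among them rbcS, the small subunit of Rubisco, with at most 24.1. Only 1 of the 14, C4ppdkZm1 for pyruvate orthophosphate dikinase, was bright enough to test. The summed signal of the 14 genes, with 1 probe set per gene, was 398 to 554 at 21 days and 641 to 710 at 14 days, with no overlap. Other probe sets of C4ppdkZm1, outside the sum, overlapped between the days. The brightest of these had 2.32, 198 and 673 at 21 days, against 8.85, 82.4 and 697 at 14 days. The genes that follow were listed as far apart between giant and control cells, with earlier results of these data known. Their values are therefore a description and no independent check. Por2, an aquaporin gene, had 2224, 2358 and 1681 at 21 days, against 5242, 2210 and 2998 at 14 days. Its mean in giant cells was 47.6 at 21 days and 24.0 at 14 days, so every control array was far brighter for it than the giant cells were on average. Prcw1 averaged 337 ± 211 at 21 days and 301 ± 134 at 14 days (SD, n = 3 each) in control cells. In giant cells it averaged 3508 ± 1305 at 21 days and 3837 ± 1704 at 14 days (SD, n = 3 each). SBEIIb and gln2, of the same list, also had higher means in giant cells. Ae1 did not stand apart, with means of 5.30 at 21 days and 2.07 at 14 days in control cells. Its giant-cell means were 4.19 at 21 days and 2.09 at 14 days.

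The 6 arrays were not equally alike. Pearson correlations of log2 signals over the tested probe sets were 0.878 to 0.934 among the 21-day arrays, 0.844 to 0.928 among the 14-day arrays and 0.825 to 0.928 between the days. Replicate 1 at 14 days stood apart, with a mean correlation of 0.853 to the other 5 arrays, against 0.881 to 0.913 for those. The first principal component, with 35.6% of the variance, put that array at 68.4 and the other 5 between -34.7 and 7.06, so it did not separate the days. Median signals were 182 to 208 at 21 days and 185 to 216 at 14 days.

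Some RNA measures also stood apart between the days. The signal of 18S ribosomal RNA was 20471, 20584 and 21800 at 21 days, against 32571, 22182 and 31829 at 14 days. The log2 ratio of 3′ to 5′ actin signal, which is higher where RNA is broken or copied incompletely, was 3.65, 2.72 and 2.45 at 21 days, against 2.32, 2.40 and 2.09 at 14 days. Neither measure overlapped between the days. Each had an exact two-sided permutation p of 0.1, the smallest that 3 against 3 arrays allow, and 0.5 after adjustment over 10 measures. The 3′ to 5′ log2 ratios of GAPDH, ubiquitin, EF1a and cyclophilin overlapped between the days. Their 21-day means were higher by 0.32, 0.12, 0.26 and 0.72, with an exact permutation p of 0.2, 0.7, 0.4 and 0.2. The part of RNA quality in the differences below was not tested.

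Only 3 probe sets differed between the days, all higher at 21 days, and none of them has a gene name in the annotation. They were called with limma's moderated test at an adjusted p under 0.05, over 12080 probe sets, which is 0.0248% of those tested. The first, Zm.16049.2.A1_at, had a signal of 6020, 7128 and 4586 at 21 days, against 1282, 1585 and 784 at 14 days. The days did not overlap, and the log2 difference was 2.31 ± 0.26 (SE; limma adjusted p = 0.00866), or 4.95-fold. Zm.13558.1.A1_at had 1434, 1568 and 1179 at 21 days, against 322, 499 and 418 at 14 days. It too was higher on every 21-day array, by 1.74 ± 0.25 on the log2 scale (SE; limma adjusted p = 0.0447). The remaining probe set, Zm.9425.2.A1_x_at, had 20262, 17376 and 18381 at 21 days, against 8437, 9446 and 9724 at 14 days. That is a log2 difference of 1.02 ± 0.14 (SE; limma adjusted p = 0.0447), at a signal near the top of the scale.

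With 1 control array left out at a time, the log2 differences of the 3 probe sets stayed between 2.02 and 2.53, between 1.58 and 1.89, and between 0.96 and 1.07, but most calls were lost. Without replicate 1 or without replicate 2 of the 21-day arrays no probe set was called, and the adjusted p of Zm.16049.2.A1_at became 0.0875 or 0.0933. Without any other control array 1 probe set was called. Zm.13558.1.A1_at and the third probe set did not pass when any 1 of the 6 arrays was left out, with limma adjusted p between 0.0722 and 0.335 and between 0.0892 and 0.256. In giant cells, where the same fit compared the same days, the 3 probe sets were also higher at 21 days, by 2.86, 1.87 and 1.96 on the log2 scale. The giant-cell values of limma's adjusted p were 0.000366, 0.0088 and 5.4e-05, in that order.

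**Figure D1:**
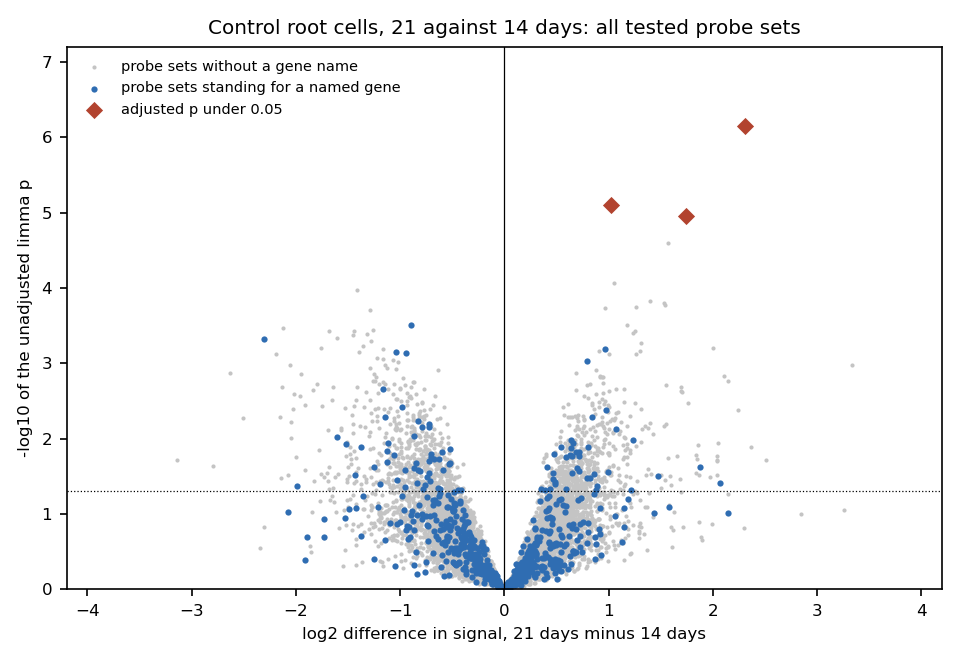
Each point is 1 of the 12080 tested probe sets in control root cells; the x axis is the log2 difference in signal, 21 days minus 14 days, and the y axis is -log10 of the unadjusted limma p, with a dotted line at 0.05. The 3 called probe sets (red diamonds) all lie to the right of 0, and the 688 probe sets that stand for named genes (blue) all lie below them.

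Over all tested probe sets the median log2 difference was -0.02, with 5th and 95th percentiles of -0.84 and 0.72 and a median SE of 0.32. At an unadjusted limma p under 0.05 there were 1190 probe sets, or 9.85%, of which 560 (4.64%) were higher and 630 (5.22%) lower at 21 days. On 14.5% of probe sets the arrays of the days did not overlap, 7% higher and 7.49% lower at 21 days. For 5864 probe sets, or 48.5%, the 95% confidence interval of the difference lay within 2-fold in either direction. For the others the 3 arrays a day left a 2-fold difference possible.

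No named gene passed the threshold. The smallest limma adjusted p among the 688 was 0.23. At an unadjusted p under 0.05 there were 90 named genes, 40 higher and 50 lower at 21 days, or 13.1% against 9.85% of all probe sets. The arrays of the days did not overlap for 109 named genes, 44 higher and 65 lower at 21 days, or 15.8% against 14.5% of all probe sets. A log2 difference beyond 1 was measured for 46 named genes, 14 higher and 32 lower. Without replicate 1 at 14 days, 25 were higher and 39 lower at an unadjusted p under 0.05. With arrays scaled to the added control transcripts, 26 were higher and 18 lower. The gene values that follow are therefore descriptions, and none is a change that passed the test.

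**Figure D2:**
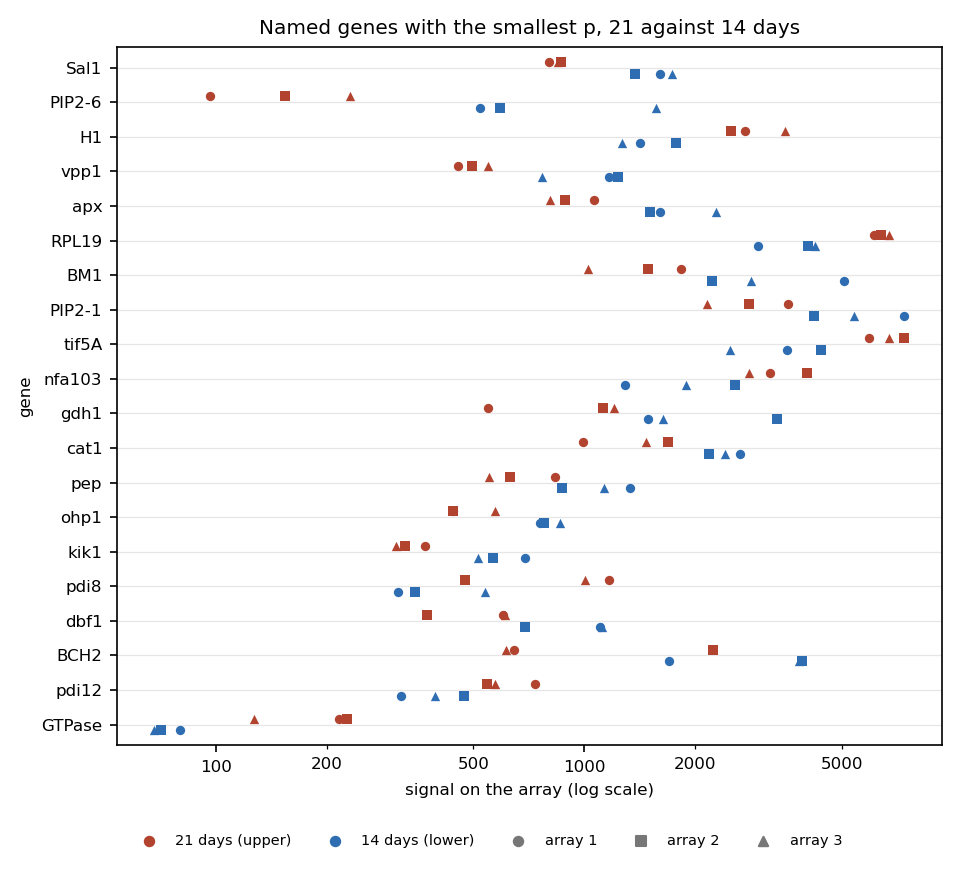
Signal on each array (x axis, log scale) of the 20 named genes with the smallest unadjusted p, ordered from top to bottom by p; red marks are the 3 arrays at 21 days and blue marks the 3 at 14 days, with a circle, square or triangle for array 1, 2 or 3. For 18 of the 20 genes the marks of the days do not overlap, and pdi8 and BCH2 are the exceptions. The genes were picked by p in this same comparison, so their separation follows from the choice and is no further support. Over all tested probe sets 14.5% did not overlap.

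The gene with the smallest p was Sal1, which in maize endosperm restricts the number of aleurone layers and encodes a protein of endosomal sorting. Sal1 had a signal of 804, 864 and 849 at 21 days, against 1607, 1373 and 1736 at 14 days. The 21-day arrays lay close together and all below the 14-day arrays, with a log2 difference of -0.89 ± 0.18 (SE; limma adjusted p = 0.23).

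Aquaporins lay mostly below 0. Of 29 on the array 21 were tested, and 15 of these had a lower fitted level at 21 days. Their median log2 difference was -0.48, against -0.02 over all probe sets. An unadjusted p under 0.05 was reached by 4, all lower at 21 days, where 5.22% of all probe sets were. For 7 of the 21 the 21-day arrays all lay below the 14-day arrays, beside 7.49% of all probe sets. PIP2-6, a plasma-membrane aquaporin, had 96.3, 154 and 232 at 21 days, against 523, 590 and 1563 at 14 days. Its log2 difference of -2.30 ± 0.50 (SE; limma adjusted p = 0.236) was the largest of the list, and its days did not overlap. PIP2-1, of the same subfamily, had 3585, 2806 and 2160 at 21 days, against 7404, 4193 and 5388 at 14 days, a log2 difference of -0.98 ± 0.28 (SE; limma adjusted p = 0.326). Its dimmer probe set gave -0.89. TIP2-2, an aquaporin of the vacuolar membrane, had 1402, 1439 and 521 at 21 days, against 3374, 1773 and 1866 at 14 days. ZmPIP2-3 had 2785, 1639 and 1834 at 21 days, against 4250, 3316 and 3325 at 14 days. Neither of the last pair overlapped between the days, and their log2 differences were -1.13 and -0.83 with limma adjusted p of 0.413 and 0.454. A dimmer probe set of ZmPIP2-3 gave -0.59, with overlapping arrays.

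The summed signal of the 29 aquaporin genes was 29789 to 35947 at 21 days and 40002 to 64263 at 14 days, so the sums of the days did not overlap. The highest log2 difference in the list, 1.19, was that of TIP4-1, which did not reach an unadjusted p of 0.05 and was 0.44 for TIP4-1 without replicate 3 at 14 days. Leaving out 1 control array at a time moved the median of the list between -0.65 and -0.32. It was nearest to 0 without replicate 1 at 14 days, where 2 genes reached an unadjusted p under 0.05. With array weights the median was -0.21.

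Proton pumps, which drive transport across the plasma membrane and the vacuolar membrane, were measured by 4 genes. Vpp1, a vacuolar pyrophosphatase, had 453, 495 and 549 at 21 days, against 1164, 1233 and 766 at 14 days. Its 21-day arrays all lay below the 14-day arrays, with a log2 difference of -1.04 ± 0.24 (SE; limma adjusted p = 0.236). A dimmer probe set of vpp1 gave -0.43, with overlapping arrays. The other 3 pump genes had log2 differences no farther from 0 than -0.14.

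Ribosomal proteins lay on the other side of 0. All 18 on the array were tested, 17 had a higher fitted level at 21 days, and the median log2 difference was 0.31. An unadjusted p under 0.05 was reached by 5, all higher at 21 days, where 4.64% of all probe sets were. For 4 of the 18 the 21-day arrays all lay above the 14-day arrays, beside 7% of all probe sets. RPL19, a protein of the large ribosomal subunit, had 6124, 6412 and 6715 at 21 days, against 2957, 4039 and 4241 at 14 days. The 21-day values were close to each other and above every 14-day value, with a log2 difference of 0.79 ± 0.19 (SE; limma adjusted p = 0.263). Rps6, of the small subunit, had 8231, 7875 and 7021 at 21 days, against 4078, 5862 and 6171 at 14 days, a log2 difference of 0.54. Other probe sets of rps6 gave 0.56 with no overlap, and 0.32 and 0.27 with overlapping arrays. RPS21 had 173, 125 and 145 at 21 days, against 44.8, 69.5 and 101 at 14 days, a log2 difference of 1.00. For arpp2a-3, an acidic protein of the ribosomal stalk, the values were 2162, 2174 and 1136 at 21 days, against 437, 1589 and 1178 at 14 days. Its days overlapped, and replicate 1 at 14 days had the lowest value for each of these 4 genes. Without that array 13 of 18 members were above 0, the median was 0.17, and 1 member reached an unadjusted p under 0.05. The median was lowest without that array and highest, at 0.58, without replicate 3 at 21 days.

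Translation factors, which bring ribosomes to messenger RNA and move them along it, were mixed. Of 11 tested, 7 were above 0 and 4 below, with a median of 0.16, which was 0.05 without replicate 1 at 14 days. Tif5A, an initiation factor 5A, had 5933, 7403 and 6736 at 21 days, against 3543, 4380 and 2483 at 14 days, a log2 difference of 0.98 ± 0.28 (SE; limma adjusted p = 0.33). A second probe set of the same gene gave -0.06, so the probe sets of tif5A disagree. Elfa2, an elongation factor 1-alpha, had 11302, 11628 and 9272 at 21 days, against 6345, 8719 and 8391 at 14 days. Tif4A2, an RNA helicase of translation initiation, had 6719, 7447 and 7799 at 21 days, against 4726, 6178 and 6382 at 14 days. The arrays of both genes did not overlap on these probe sets, with log2 differences of 0.46 and 0.35. Other probe sets of elfa2 gave 0.38 and 0.96 with no overlap, and 0.26 and 0.28 with overlapping arrays. GOS2, an initiation factor 1 homologue, was on the other side, with 1367, 1911 and 2121 at 21 days, against 3163, 2476 and 3334 at 14 days.

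Protein disulfide isomerases and chaperones of the endoplasmic reticulum, which fold secreted proteins, had 11 of 12 members above 0 and a median log2 difference of 0.25. The 3 that reached an unadjusted p under 0.05 were pdi8, pdi12 and bip2, all higher at 21 days, where 4.64% of all probe sets were. For 1 of the 12, pdi12, the 21-day arrays all lay above the 14-day arrays, beside 7% of all probe sets. Pdi8 had 1170, 474 and 1004 at 21 days, against 312, 348 and 536 at 14 days. Replicate 2 at 21 days fell within the 14-day range, and the log2 difference was 1.07 ± 0.34 (SE; limma adjusted p = 0.353). Pdi12 had 735, 545 and 572 at 21 days, against 317, 470 and 392 at 14 days, a log2 difference of 0.64, and its second probe set gave 0.27. Bip2, the luminal Hsp70 chaperone, had 4125, 2580 and 3676 at 21 days, against 1483, 1773 and 2766 at 14 days, with overlapping arrays. Leaving out 1 array at a time kept the median of this list between 0.16 and 0.43.

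**Figure D3:**
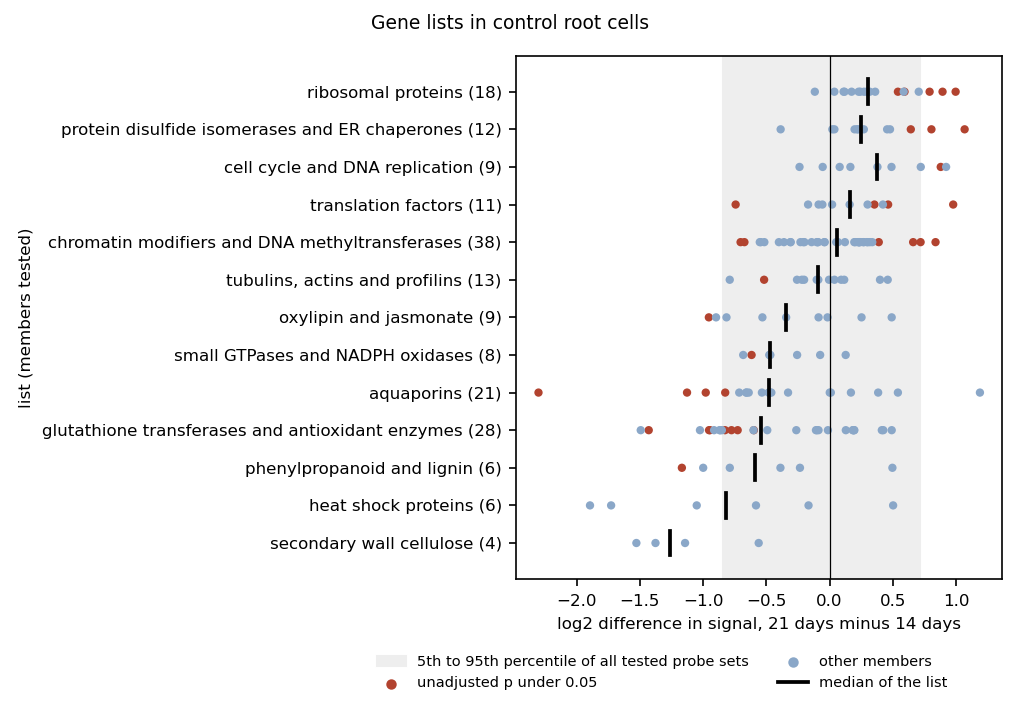
Each point is 1 tested gene of a list named on the y axis (number of genes tested in brackets) at its log2 difference in signal, 21 days minus 14 days (x axis); red points had an unadjusted p under 0.05, black bars are list medians and the grey band is the 5th to 95th percentile of all 12080 probe sets. Ribosomal proteins have 17 of 18 points above 0, and aquaporins 15 of 21 below 0.

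Glutathione transferases and antioxidant enzymes, which conjugate toxic compounds and remove peroxides, also lay mostly below 0. Of 41 on the array 28 were tested, 20 were below 0 and 8 above, and the median log2 difference was -0.55. An unadjusted p under 0.05 was reached by 7, all lower at 21 days, where 5.22% of all probe sets were. Among the genes whose arrays did not overlap, 6 were lower and 2 higher at 21 days, beside 7.49% and 7% of all probe sets. Apx, an ascorbate peroxidase, had 1060, 889 and 806 at 21 days, against 1603, 1511 and 2273 at 14 days, a log2 difference of -0.95 ± 0.21 (SE; limma adjusted p = 0.236). Cat1, a catalase, had 993, 1687 and 1473 at 21 days, against 2642, 2181 and 2413 at 14 days, a log2 difference of -0.83 ± 0.25 (SE; limma adjusted p = 0.344). Its other 2 probe sets gave -1.01 and -0.55. Every 21-day array was below every 14-day array for both genes, and the same held for the next pair. Gst1, a glutathione transferase, had 7927, 7914 and 7299 at 21 days, against 13800, 9486 and 12164 at 14 days. Sod2, a superoxide dismutase, had 275, 438 and 363 at 21 days, against 709, 556 and 520 at 14 days. Their log2 differences were -0.60 and -0.73, and a second probe set of sod2 gave -1.21. Without replicate 3 at 14 days the median of the list was -0.19, and without replicate 2 at 21 days it was -0.59.

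Genes of phenylpropanoid and lignin synthesis numbered 6, of which 5 were below 0, with a median log2 difference of -0.59. BM1, the cinnamyl alcohol dehydrogenase whose mutation gives brown midribs, had 1831, 1491 and 1021 at 21 days, against 5076, 2228 and 2827 at 14 days. All 21-day arrays lay below, with a log2 difference of -1.17 ± 0.31 (SE; limma adjusted p = 0.298). 4CL, a coumarate ligase, had 1228, 991 and 1544 at 21 days, against 1993, 1795 and 2735 at 14 days. Ccr2, a cinnamoyl-CoA reductase, had 157, 167 and 96.9 at 21 days, against 357, 358 and 175 at 14 days. Both were apart between the days, yet neither reached an unadjusted p of 0.05, with log2 differences of -0.79 and -0.999. PAL1, the enzyme that opens the pathway, had overlapping arrays, with 7715, 6693 and 7078 at 21 days, against 10343, 7669 and 7498 at 14 days.

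Cellulose synthases of secondary walls, which also mark xylem, varied among the captures of a single day. Cesa10 had 1317, 266 and 64.0 at 21 days, against 1175, 565 and 681 at 14 days. Cesa11 had 482, 98.6 and 110 at 21 days, against 651, 528 and 419 at 14 days. CesA12 had 773, 140 and 119 at 21 days, against 831, 527 and 348 at 14 days. Replicate 1 at 21 days lay within or above the 14-day range for all 3 genes, and the other 2 arrays at 21 days were dimmer than every 14-day array. The list of secondary wall cellulose also held bk2, with a log2 difference of -0.56, which is not among the xylem markers. The 4 genes of the list had a median log2 difference of -1.26. It was -2.10 without replicate 1 at 21 days and -0.52 without replicate 3 at 21 days. No member reached an unadjusted p of 0.05, and the 95% interval of cesa10 ran from -3.55 to 0.80. LAC1, a laccase gene and the remaining xylem marker, lay on the other side, with 171, 333 and 422 at 21 days, against 365, 152 and 148 at 14 days, a log2 difference of 0.50.

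Values of replication genes moved with 1 array. PCNA, the sliding clamp of DNA polymerase, had 1669, 1279 and 1022 at 21 days, against 401, 952 and 898 at 14 days, a log2 difference of 0.88 ± 0.40 (SE; limma adjusted p = 0.504). MCM6, a subunit of the replicative helicase, had 421, 433 and 413 at 21 days, against 111, 321 and 441 at 14 days. Wee1, a kinase that delays entry into mitosis, had 128, 152 and 128 at 21 days, against 36.4, 127 and 166 at 14 days. Replicate 1 at 14 days was the lowest for each. Without it the log2 difference was 0.48 for PCNA, 0.16 for MCM6 and -0.09 for wee1. The median of the 9 tested cell cycle and replication genes was 0.38 with that array and 0.01 without it.

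Linker histone H1, which binds the DNA between nucleosomes, had 2729, 2509 and 3515 at 21 days, against 1416, 1771 and 1264 at 14 days. No 21-day array overlapped a 14-day array, and the log2 difference was 0.97 ± 0.22 (SE; limma adjusted p = 0.236). One further probe set of H1 gave 0.91, and the other 4 gave between -0.01 and 0.36. Nfa103, a nucleosome assembly factor, had 3187, 4034 and 2801 at 21 days, against 1288, 2566 and 1892 at 14 days. Nfa102, of the same family, had 2585, 2627 and 1838 at 21 days, against 1479, 1811 and 1169 at 14 days. Both stood apart between the days, with log2 differences of 0.84 and 0.66. Hda1, a histone deacetylase, was on the other side, with 544, 378 and 489 at 21 days, against 1082, 617 and 666 at 14 days. The 38 tested chromatin modifiers had a median of 0.06, with 20 above and 18 below 0.

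Among metabolic and regulatory genes, gdh1, a glutamate dehydrogenase, had 548, 1122 and 1201 at 21 days, against 1487, 3337 and 1634 at 14 days, a log2 difference of -1.14 ± 0.34 (SE; limma adjusted p = 0.337). Pep, a phosphoenolpyruvate carboxylase, had 831, 628 and 551 at 21 days, against 1330, 872 and 1130 at 14 days. BCH2, a beta-carotene hydroxylase, had 643, 2238 and 614 at 21 days, against 1694, 3910 and 3840 at 14 days, where replicate 2 at 21 days lay within the 14-day range. Ohp1, a bZIP transcription factor that pairs with Opaque2, had 441, 439 and 572 at 21 days, against 760, 779 and 858 at 14 days. Kik1, a protein kinase, had 370, 326 and 309 at 21 days, against 688, 567 and 514 at 14 days. Dbf1, an AP2-type transcription factor, had 600, 375 and 610 at 21 days, against 1103, 689 and 1120 at 14 days. All of these 6 genes but BCH2 did not overlap between the days, and each had a lower fitted level at 21 days. A gene listed only as GTPase had 216, 227 and 127 at 21 days, against 80.1, 71.0 and 68.0 at 14 days, so it was higher on each 21-day array. NNR1, a nitrate reductase, had 2283, 3582 and 2173 at 21 days, against 371, 1188 and 1477 at 14 days. Its arrays were apart as well, but its SE of 0.84 beside a log2 difference of 1.58 left the unadjusted p above 0.05. Nitrate and nitrogen assimilation genes as a list had 5 members above and 5 below 0.

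Small GTPases and NADPH oxidases had 7 of 8 members below 0 and a median log2 difference of -0.47. RbohB, an NADPH oxidase, had 520, 666 and 562 at 21 days, against 1003, 779 and 679 at 14 days. Oxylipin and jasmonate genes had 7 of 9 members below 0 and a median of -0.34, which was 0.01 without replicate 3 at 14 days. Aoc1, counted above 0 with 0.49, gave -0.74 on its other probe set. Neither probe set overlapped between the days, so they disagree. Lox3, a lipoxygenase, had 576, 553 and 954 at 21 days, against 853, 1127 and 2346 at 14 days. Glycolysis and fermentation genes were evenly divided, with 10 above and 10 below 0 and a median of 0.01. Genes of respiration and malate dehydrogenases had 8 of 10 members above 0 and a median of 0.25, and none reached an unadjusted p of 0.05. Cystatins and cysteine proteases, which restrain and carry out protein breakdown, had 8 of 9 members below 0 and a median of -0.23, which was -0.64 without replicate 3 and -0.04 without replicate 1 at 14 days. The 13 tested tubulins, actins and profilins had 5 above and 8 below 0, with a median of -0.09. Genes of cytokinin and gibberellin had 6 of 14 above 0, and those of ethylene and abscisic acid 3 of 6, with medians of -0.06 and 0.06. The medians of glycolysis, tubulins and these last hormone lists crossed 0 when 1 array was left out.

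The brightest named genes of these cells fell in many of the lists. Among the 25 with the highest mean log2 signal over the 6 arrays, 4 encode tubulins or actin-binding proteins (tua4, tub7, ADF3 and PRO5) and 4 are translation factors of the list above (elfa3, elfa2, eif5a and elfa5). Brightness orders probe sets by signal and not by number of transcripts. Grp1, a glycine-rich protein gene, was the brightest named gene on all 6 arrays, with 20817, 19798 and 22218 at 21 days, against 29220, 19645 and 24626 at 14 days. It ranked 8 or 9 among all 17621 probe sets. Tua4, an alpha-tubulin, had 18248, 13840 and 12729 at 21 days, against 27015, 18127 and 19267 at 14 days, and kept a rank of 2 to 5 among named genes.

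**Figure D4:**
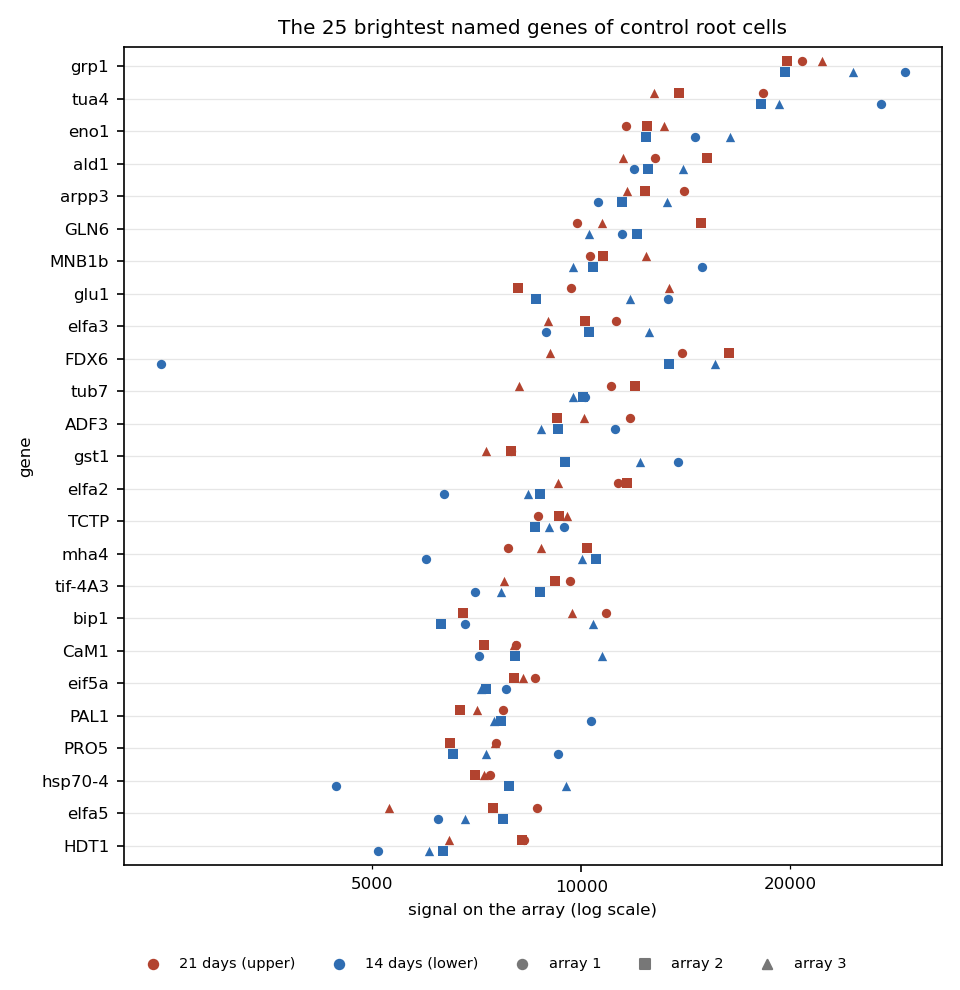
Signal on each array (x axis, log scale) of the 25 named genes with the highest mean log2 signal over the 6 control arrays, brightest at the top; red marks are the 3 arrays at 21 days and blue marks the 3 at 14 days, with a circle, square or triangle for array 1, 2 or 3. Most genes span less than 2-fold over the 6 arrays, and FDX6 has a single dim array at 14 days.

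The glycolytic enzymes eno1 (enolase) and ald1 (fructose-bisphosphate aldolase) followed. Eno1 averaged 12386 ± 776 at 21 days and 14440 ± 1991 at 14 days (SD, n = 3 each). Ald1 averaged 13138 ± 1872 at 21 days and 12808 ± 1094 at 14 days (SD, n = 3 each). Arpp3, a ribosomal stalk protein, averaged 12687 ± 1251 at 21 days and 11761 ± 1383 at 14 days (SD, n = 3 each). The days of these 3 genes overlapped on these probe sets. A dimmer probe set of arpp3 averaged 7534 at 21 days and 3742 at 14 days, with no overlap and a log2 difference of 0.97, and another gave -0.33, so the probe sets of arpp3 disagree. GLN6, a cytosolic glutamine synthetase, averaged 11806 ± 2683 at 21 days and 11246 ± 897 at 14 days (SD, n = 3 each). Glu1, the beta-glucosidase that frees benzoxazinoid defence compounds from their sugar, averaged 10372 ± 2699 at 21 days and 11229 ± 2397 at 14 days (SD, n = 3 each). Mha4, a proton pump of the plasma membrane, averaged 8933 ± 1185 at 21 days and 8828 ± 2488 at 14 days (SD, n = 3 each), again with overlapping days.

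TCTP, the translationally controlled tumour protein, was the steadiest of the 25. It had 8665, 9297 and 9547 at 21 days, against 9445, 8587 and 8987 at 14 days, a coefficient of variation of 4.46% over the 6 arrays. Of its other probe sets, 2 bright ones gave log2 differences of 0.06 and 0.12, and 2 dim ones gave 0.79, with no overlap, and -0.50. FDX6, a ferredoxin, was the least steady, with 13980, 16296 and 9026 at 21 days, against 2484, 13386 and 15582 at 14 days. Replicate 1 at 14 days alone was dim, and the coefficient of variation was 44.3%. In the top 25 the days did not overlap for gst1 and elfa2, described above, or for eif5a and HDT1. Over all tested probe sets the share without overlap was 14.5%. Eif5a, another initiation factor 5A gene, had 8589, 8001 and 8247 at 21 days, against 7785, 7288 and 7174 at 14 days. HDT1, a plant-type histone deacetylase, had 8268, 8213 and 6462 at 21 days, against 5107, 6322 and 6039 at 14 days. The log2 differences of eif5a and HDT1 were 0.16 and 0.39, with limma adjusted p of 0.746 and 0.504. Dimmer probe sets of HDT1 gave log2 differences of 0.42 and 0.27 with no overlap, and 0.15 with overlapping arrays. Of these 25 genes, 21 were also in the top 25 of 21 days alone and 23 in that of 14 days alone.

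The 10 named genes with the widest spread within a day were tps6, CPPS2, chn1, al1, an1 and 5 heat shock genes. Tps6, a terpene synthase, had 1.08, 1.54 and 3627 at 21 days, against 0.701, 1061 and 2074 at 14 days. CPPS2, a copalyl diphosphate synthase, had 19.2, 24.8 and 752 at 21 days, against 6.71, 299 and 722 at 14 days. Chn1, a chitinase, had 106, 115 and 1346 at 21 days, against 89.1, 724 and 1527 at 14 days. The same 3 arrays were bright for all of them, replicate 3 at 21 days and replicates 2 and 3 at 14 days. The remaining 3 arrays were at or near the bottom of the scale for tps6. Al1 had 1404, 5636 and 4330 at 21 days, against 62.0, 1635 and 3409 at 14 days, and an1 had 202, 53.8 and 69.4 at 21 days, against 847, 52.7 and 8.19 at 14 days.

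**Figure D5:**
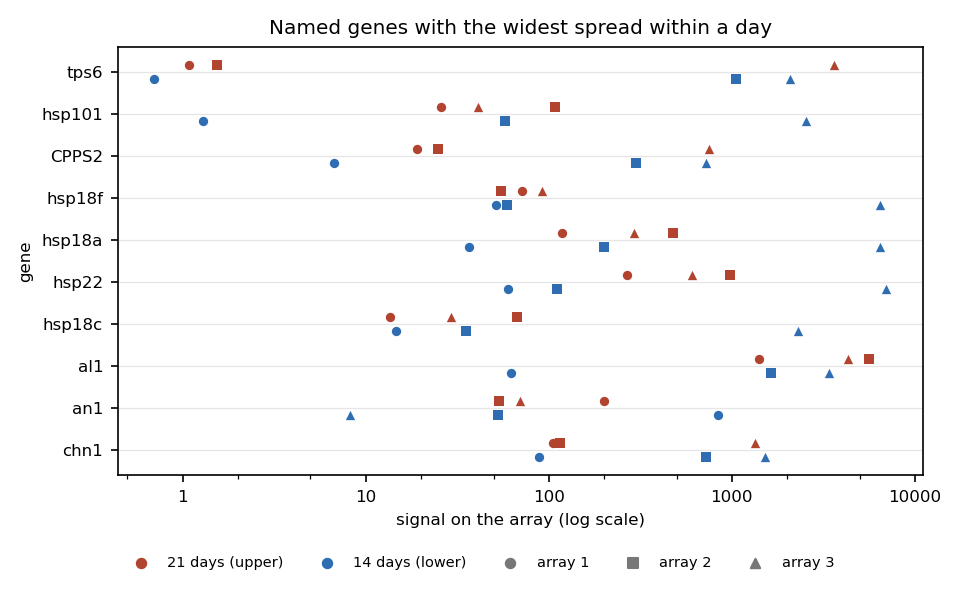
Signal on each array (x axis, log scale) of the 10 named genes with the largest spread of log2 signal between arrays of the same day, widest at the top; red marks are the 3 arrays at 21 days and blue marks the 3 at 14 days, with a circle, square or triangle for array 1, 2 or 3. The 5 heat shock genes have 1 array, replicate 3 at 14 days, above 2000, and all of their other values lie below 1000.

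The 5 heat shock genes of this group were bright on a single array. Hsp18f, a small heat shock protein, had 71.5, 54.8 and 91.7 at 21 days, against 51.4, 59.2 and 6473 at 14 days. Hsp22, another small heat shock protein, had 270, 975 and 604 at 21 days, against 60.2, 112 and 7003 at 14 days. Hsp101, a chaperone that takes protein aggregates apart, had 25.7, 108 and 41.3 at 21 days, against 1.29, 57.6 and 2563 at 14 days. In each case replicate 3 at 14 days was far above the other 5 arrays. Hsfb, a heat shock factor gene, did not share this, with 237, 227 and 281 at 21 days, against 192, 287 and 392 at 14 days. Hsp70-4, among the 25 brightest, had 7398, 7033 and 7240 at 21 days, against 4434, 7882 and 9496 at 14 days. The 6 tested heat shock genes had a median log2 difference of -0.82, which was 0.73 without that array, with all 6 above 0. For hsp18f and hsp101 the log2 difference was -1.89 and -1.05 with it and 0.32 and 1.14 without it.

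Markers of root tissues gave no group that passed. RCP1, named as a root cap gene, had 275, 428 and 264 at 21 days, against 22.0, 985 and 384 at 14 days, so the widest gap was within 14 days. ExpB7, a beta-expansin linked to root hairs, had 598, 143 and 82.3 at 21 days, against 47.8, 147 and 240 at 14 days. SH-1, a sucrose synthase also used as a phloem marker, had 2354, 4761 and 4473 at 21 days, against 3402, 2892 and 3354 at 14 days. The summed signal of the 4 xylem markers was 715 to 2744 at 21 days and 1596 to 3022 at 14 days. That of the 9 genes of meristem and root cap was 793 to 1002 at 21 days and 515 to 1779 at 14 days. All of these ranges overlapped, and the part of tissue mixture in the differences above was not tested.

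The difference between the days was then compared with that of giant cells. In the same fit, 77 probe sets differed between the days in giant cells, 33 higher and 44 lower at 21 days, or 0.637%. The test of the difference itself, giant cells minus control cells, called 0 of 12080 probe sets with limma, with a smallest adjusted p of 0.207. At an unadjusted p under 0.05 it held 839, or 6.95%. No difference over time particular to the control cells was thus called.

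H1 had the smallest p of that test among named genes. Its log2 difference between the days was 0.97 in control cells and -0.72 in giant cells, and the difference between these was -1.69 ± 0.31 (SE; limma adjusted p = 0.207). ROA averaged 107 ± 64.6 at 21 days and 645 ± 199 at 14 days (SD, n = 3 each) in giant cells. On the control arrays it had 894, 811 and 445 at 21 days, against 236, 441 and 725 at 14 days. Pht7, named as a phosphate transporter gene, averaged 2156 ± 694 at 21 days and 137 ± 87.6 at 14 days (SD, n = 3 each) in giant cells. On the control arrays it had 726, 223 and 413 at 21 days, against 161, 529 and 245 at 14 days. The control arrays of both genes overlapped between the days while the giant-cell means were far apart, and the limma adjusted p of the difference was 0.308 for each. MCM6 averaged 70.3 ± 50.9 at 21 days and 473 ± 333 at 14 days (SD, n = 3 each) in giant cells, and its difference of -3.35 had a limma adjusted p of 0.469. Dbf1 differed by 1.77 and nfd101 by -2.98, with limma adjusted p of 0.355 and 0.452.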

How the data were processed

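The deposited values are intensity, as linear MAS5 signals from Affymetrix Expression Console, per the submitters' processing notes. The trimmed mean of every control array was 500.1 or 500.2, so the arrays share a scale. The sources used here give no versions, scan dates or batches. Before log2, 9.5 was added to each signal (their 10th percentile), which shrinks differences of dim genes. Probe sets above the 40th percentile of their array on at least 3 of 12 arrays were tested, which removed 5541. A mean for each of 4 groups was fitted with limma 3.58.1 in R 4.3.3 (eBayes with trend), two-sided, with Benjamini-Hochberg adjustment over 12080 probe sets and a threshold of 0.05. The fit was tested on simulated data.

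Names came from the platform annotation and the RefSeq gene table of B73. Sequences were not used here. The genes named are the 20 with the smallest unadjusted p and up to 4 of each of 40 gene lists, again by smallest p. The others are the 25 brightest, the 10 with the widest spread within a day, and the 6 with the smallest p in the comparison with giant cells. TIP4-1 was named after its value was seen. Members whose name belongs to another kind of gene were left out of the lists, after the names were seen. The members and lists were chosen with earlier results of these data known. Alternatives were another offset, filter, scaling or weighting, a replicate block, the control arrays alone, and each array left out.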

Additional observations from a re-analysis of the deposited data

How the results depend on the processing

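The count of 3 called probe sets was 1 with no filter on dim probe sets, 0 with arrays scaled to the added control transcripts, 9 with array weights and 0 with the 6 control arrays alone. With the replicate number as a block it was 1. Deviations of same-numbered arrays of the 2 days correlated between -0.05 and 0.24, and those of other pairs across the days between -0.27 and 0.17. So few pairs, with overlapping ranges, cannot decide whether the numbers pair the arrays. Leaving out 1 control array at a time gave 0 to 1. No named gene was called under any of these settings, and the smallest limma adjusted p of a named gene was 0.0539, with array weights. The difference from giant cells stayed at 0 calls, except for 9 without replicate 2 of the giant cells at 21 days, 1 of them named (nfd101, adjusted p = 0.0201). Over the 64 genes whose log2 difference was followed through these settings, 1000 of 1010 values kept their sign. Many of these genes were named for a small p in the same comparison, and the settings share most arrays. Both favour a kept sign. Other named genes were not followed. The sign turned for pht7 with array weights (-0.26 in place of 0.54), and for 8 genes when 1 array was left out. Their log2 differences then ran between -0.094 and 0.874 for wee1, between -0.144 and 1.22 for expB7, between -2.98 and 0.32 for hsp18c, between -3.05 and 0.32 for hsp18f, between -2.81 and 1.14 for hsp101, between -2.13 and 1.43 for hsp18a, between -0.74 and 2.59 for hsp22 and between -0.425 and 0.0728 for hsfb. The heat shock genes were highest without replicate 3 at 14 days. Leaving out 1 array moved the log2 difference of the added transcripts between -0.235 and 0.0174 and that of 3′ to 5′ ubiquitin between -0.0482 and 0.291; the cause was not tested. Ranked at 21 days alone, at 14 days alone or after quantile normalization, the 25 brightest genes shared 21, 23 and 25 with those given.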
